A study of Homo sapiens with 39 samples.

Results

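The beta-globin locus genes described here are 7 of the 45435 genes in the deposited tables: the globins HBE1, HBG1, HBG2 and HBB and the olfactory receptor genes OR51B4, OR51B5 and OR51B6. They were chosen by name, as neighbours on chromosome 11 whose transcript levels had been seen to differ between cell lines, so their levels are given as a description and no test is read from them. In all 7, values were present in every table, and 4 of them (HBE1, HBB, OR51B4 and OR51B5) averaged 1 TPM or more over all libraries and passed the filter on low values. OR51B4, at 2.88 TPM over all libraries, passed mainly through the lines of isoforms 4, 5 and 12, with means of 13.7, 9.92 and 6.09 TPM. Its means in the other groups were between 0.0759 TPM and 1.64 TPM. The cells were HCT116, a human colorectal cancer line, of the Flp-In T-REx type, in which a construct is placed at a prepared genomic site and switched on by doxycycline. Each of 12 stable lines carried a single insertion of 1 human isoform of HNF4A (isoforms 1 to 12) with GFP at its C-terminus. The parental cells, called the empty control by the submitters, carried none. Parental cells and lines alike were given 2.5 µg/ml doxycycline for 48 h after the selection antibiotics were withdrawn. Parental cells had been kept in 5 µg/ml blasticidin S and 100 µg/ml zeocin, and the lines in 5 µg/ml blasticidin S and 100 µg/ml hygromycin B. Each of the 13 groups had 3 libraries, 39 in all. Nothing in the labels says whether the 3 came from separate cultures, so the spread between them may be technical. With 1 line per isoform and no line expressing GFP alone, the isoform, the line, the earlier antibiotic and GFP cannot be told apart.

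The beta-like globin genes encode oxygen-carrying chains of haemoglobin and are used in turn during development. HBE1 (epsilon) is the embryonic gene, HBG1 and HBG2 (gamma) are the fetal genes, and HBB (beta) is the adult gene. In red cell precursors a distant enhancer cluster, the locus control region, drives whichever of them is active. The cluster is embedded in an array of olfactory receptor genes, which encode odorant receptors of nasal sensory neurons. HNF4A is a nuclear receptor that activates liver and gut genes and is made as several isoforms from alternative promoters and splicing.

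On GRCh38, in the GENCODE v29 annotation, all members but OR51B6 lie on the minus strand. HBB is at chr11:5225464-5229395, HBG1 at chr11:5248079-5249859, HBG2 at chr11:5253190-5505605, HBE1 at chr11:5268345-5505652, OR51B4 at chr11:5301014-5301946 and OR51B5 at chr11:5303444-5505652. OR51B6, at chr11:5351508-5352446, is on the plus strand. The long spans of HBE1, HBG2 and OR51B5 come from transcript models that start in the same far upstream exon. That exon is used by 2 of 3 HBE1 models, 1 of 3 HBG2 models and 4 of 5 OR51B5 models, and the bases common to them span chr11:5505569-5505604. It lies 235.7 kb upstream of the start of the third, compact HBE1 model, which begins at the usual globin promoter. OR51B4 is a single exon inside an intron of the long HBE1 models, lies outside the span of OR51B5, and shares no exon with either. The deposited values are per gene, so they do not say which of these starts was used. The authors' own annotation is not named in the sources used here, but 13279 of the row names start with LOC, a form of RefSeq gene name. Among RefSeq models, OR51B5 had a model that reaches the far upstream exon, and HBE1 and HBG2 did not. Whether the deposited values of HBE1 and HBG2 include the long models is therefore unknown.

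The sequences bear on how well reads can be assigned among these genes. Stretches of 31 bases were compared between all GENCODE v29 transcripts of the members. HBE1 and HBB had 0 of them in common, and OR51B4 had 0 in common with any other member. HBE1 and OR51B5 had 56, which was 5.8% of those of HBE1 and 1.4% of those of OR51B5. HBG2 had 27 in common with HBE1 and 456 with HBG1, and the latter were 52.8% of the HBG2 total. Other annotated genes share more: 727 of the 960 stretches of HBE1 (75.7%) are also in AC104389.4, a minus-strand gene at chr11:5254392-5678434 that overlaps it, and 53.4% of those of HBG2 are in AC104389.5, at chr11:5248270-5254783. Of OR51B5 4.1% were shared with genes that are not members, of HBB 8.7% and of OR51B4 0.1%. Whether the authors' annotation held these overlapping GENCODE genes is not given. If it did, the levels of HBE1 and HBG2 depend on how reads were divided with them. HBG1 and HBG2 are near-identical copies, and the split of reads between them is uncertain. The second coding exon, 223 bases in each globin, shows the difference. It is printed 5′ to 3′ on the coding strand, for HBE1 at chr11:5269454-5269676, HBG2 at chr11:5254292-5254514 and HBB at chr11:5226577-5226799. Capitals mark the bases of HBE1 and HBG2 that differ between these 2, and the bases of HBB that differ from HBE1.
HBE1: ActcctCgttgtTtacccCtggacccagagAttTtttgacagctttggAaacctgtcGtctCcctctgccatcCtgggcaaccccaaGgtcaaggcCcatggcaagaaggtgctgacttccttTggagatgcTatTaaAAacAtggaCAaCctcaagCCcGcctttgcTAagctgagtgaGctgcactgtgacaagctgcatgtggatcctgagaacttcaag
HBG2: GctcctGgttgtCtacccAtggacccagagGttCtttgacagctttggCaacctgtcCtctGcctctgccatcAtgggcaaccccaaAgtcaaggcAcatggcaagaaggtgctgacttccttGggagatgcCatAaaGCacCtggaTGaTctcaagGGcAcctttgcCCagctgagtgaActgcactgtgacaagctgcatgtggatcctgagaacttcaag
HBB: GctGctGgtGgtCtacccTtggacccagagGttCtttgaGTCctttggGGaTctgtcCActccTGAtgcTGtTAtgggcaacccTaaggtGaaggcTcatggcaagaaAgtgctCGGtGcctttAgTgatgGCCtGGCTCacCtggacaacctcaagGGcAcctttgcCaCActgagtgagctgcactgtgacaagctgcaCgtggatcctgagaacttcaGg
HBE1 and HBG2 differed at 27 of the 223 bases (87.9% identity), with a longest identical run of 42 bases. HBB differed from HBE1 at 50 bases (77.6% identity), and their longest identical run was 29 bases. HBG1 differed from HBG2 at 1 base of this exon.

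HBE1, the embryonic globin, was detected in all 39 libraries and was highest in the lines of isoforms 4, 5 and 12. The parental libraries had 5.31, 8.92 and 8.81 TPM, a mean of 7.68 TPM ± 2.05 (SD, n = 3). The isoform 4 line had 44.6, 44.4 and 42.4 TPM, the isoform 5 line 26.1, 26.7 and 27.2 TPM, and the isoform 12 line 14.9, 18.6 and 15.8 TPM. Each of these 3 lines lay wholly above the parental libraries and apart from the other 2. Ratios of mean TPM to the parental mean were 5.7 for isoform 4, 3.47 for isoform 5 and 2.14 for isoform 12. The lowest HBE1 was in the isoform 9 line, at 0.289, 0.262 and 0.263 TPM, which puts the parental mean 28.3 times higher. Next came isoform 7 with 0.884, 0.899 and 0.946 TPM and isoform 8 with 0.667, 1.37 and 1.16 TPM. Means in isoforms 1, 2, 6, 10 and 11 were between 1.2 TPM and 2.25 TPM, and all 15 of their libraries were below every parental one. Only the isoform 3 line overlapped the parental cells, with 6.75, 5.07 and 3.55 TPM.

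In order of mean, HBE1 ran from isoform 4 through 5, 12, parental, 3, 11, 6, 1, 10, 2, 8 and 7 to 9. Neighbours in this order were apart in all libraries at 5 steps: 4 from 5, 5 from 12, 12 from parental, 3 from 11, and 7 from 9. From isoform 11 down to isoform 7 each group overlapped the next. Linear models (limma) on the log2(TPM + 1) scale gave differences from parental of 2.40 ± 0.18 (SE) for isoform 4, 1.70 ± 0.18 for isoform 5 and 1.03 ± 0.18 for isoform 12. On the same scale the differences were -2.74 ± 0.18 for isoform 9, between -2.15 and -1.41 for isoforms 1, 2, 6, 7, 8, 10 and 11, and -0.51 for isoform 3. Adding 1 TPM shrinks differences where TPM is low. A gene was called at an adjusted p under 0.05 and an absolute difference of at least 1. HBE1 met this in 11 of 12 lines, 3 higher and 8 lower. Over all 15003 genes tested and the 12 lines pooled, 0.94% of gene-by-line pairs were called higher and 0.574% lower. Nothing is read from that contrast, since the members were chosen on these values. The isoform 12 call fell below the minimum difference when 1 library was left out: 0.82 without parental replicate 1 and 0.94 without isoform 12 replicate 2.

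**Figure D1:**
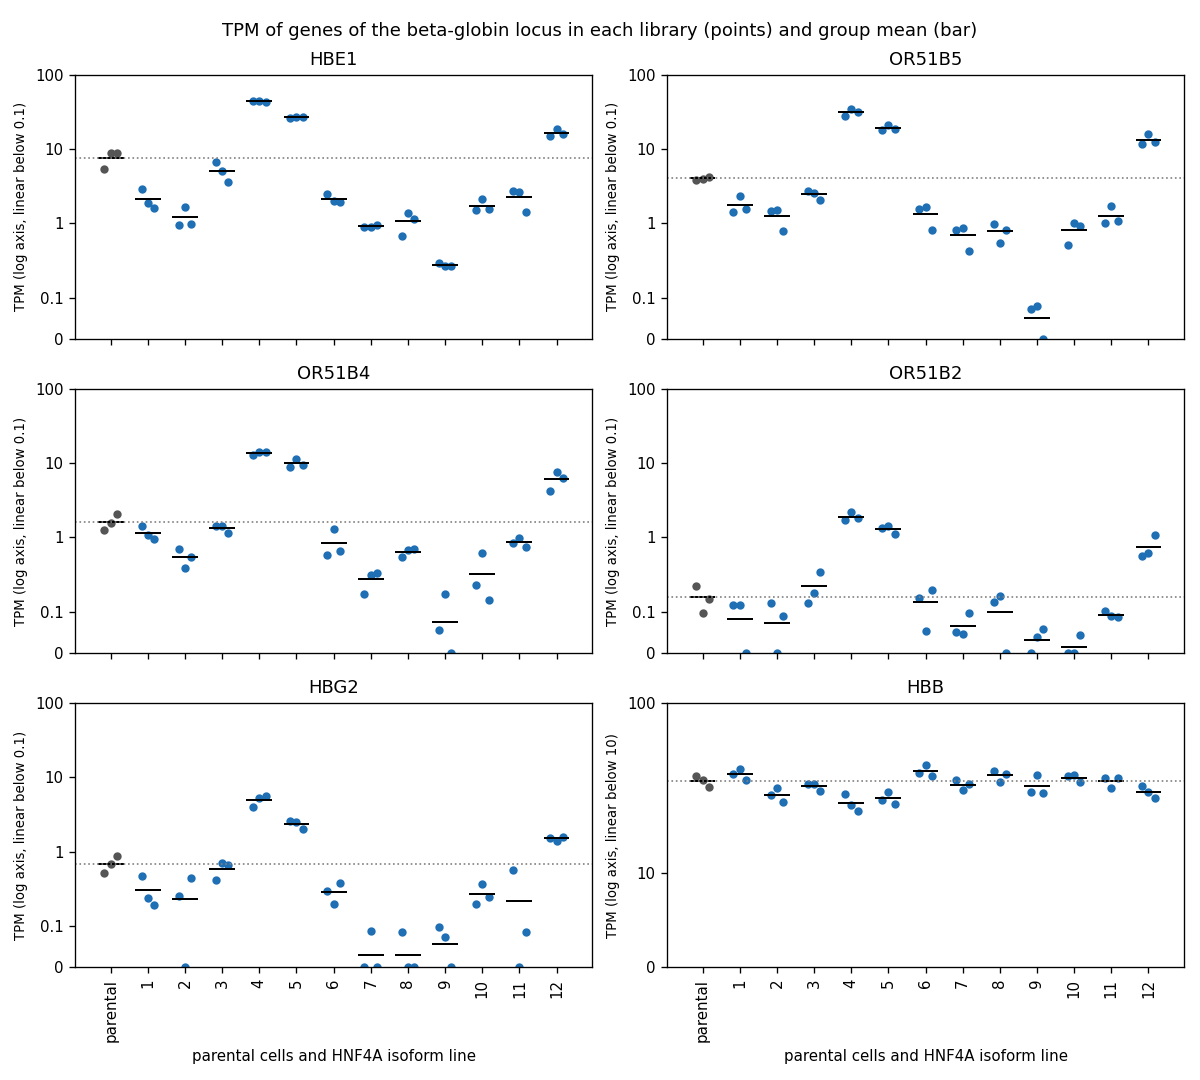
TPM of HBE1, OR51B5, OR51B4, OR51B2, HBG2 and HBB (vertical axis, logarithmic above 0.1 TPM, or above 10 TPM for HBB) in parental cells and the 12 HNF4A isoform lines. Points are the 3 libraries of a group, bars the group means and dotted lines the parental mean. Isoforms 4, 5 and 12 are highest for every gene shown except HBB, which stayed between 23.2 TPM and 43.4 TPM.

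HBG2, a fetal globin, showed a like order at a lower level, with a mean of 0.887 TPM over the 39 libraries, and did not pass the filter. Parental libraries had 0.513, 0.692 and 0.864 TPM of HBG2. Isoform 4 had 3.96, 5.28 and 5.66 TPM, isoform 5 had 2.55, 2.53 and 1.99 TPM, and isoform 12 had 1.55, 1.38 and 1.58 TPM. All 9 of these values exceeded every parental value. In the isoform 7, 8 and 9 lines HBG2 was listed at 0 in 5 of 9 libraries and did not exceed 0.0967 TPM. The 7 lines of isoforms 1, 2, 6, 7, 8, 9 and 10 lay wholly below parental, while isoforms 3 and 11 overlapped it. Fitted without the filter, the log2 difference was 1.81 ± 0.14 (SE) in isoform 4, 0.99 ± 0.14 in isoform 5 and 0.57 ± 0.14 in isoform 12. The first was called, in a comparison where 0.222% of 39252 genes were called either way. HBG1, the other fetal gene, was listed at 0 in 35 libraries. Of the rest, 1 isoform 5 library had 0.132 TPM and 3 libraries had at most 1.37e-06 TPM.

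HBB, the adult globin, had the highest mean TPM of the members in the parental cells and in every line except isoform 4, where HBE1 and OR51B5 exceeded it. Its level differed little between groups. It was at 37.3, 35.2 and 32.1 TPM in the parental libraries, a mean of 34.8 TPM ± 2.61 (SD, n = 3). Group means ran from 25.8 TPM ± 3.04 (SD, n = 3) in isoform 4 to 39.8 TPM ± 3.24 (SD, n = 3) in isoform 6, a ratio of 1.54. Every group overlapped the next in the order of means. Isoform 4 had 29.2, 25.2 and 23.2 TPM, isoform 5 had 26.9, 29.9 and 25.6 TPM, and isoform 2 had 28.8, 31.8 and 26.0 TPM. These 3 lines were wholly below the parental libraries, and the other 9 overlapped them. Log2 differences from parental lay between -0.42 and 0.19, each ± 0.09 (SE), and HBB was called by limma in 0 of 12 lines, with 4 at an unadjusted p under 0.05. Without the minimum difference it would be called lower in isoforms 2, 4 and 5, at -0.27, -0.42 and -0.33. In isoforms 4 and 5, then, HBB and HBE1 differed from parental in opposite directions.

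OR51B5 followed the same order at the extremes. Parental libraries had 3.87, 3.98 and 4.23 TPM, a mean of 4.03 TPM ± 0.185 (SD, n = 3). Isoform 4 had 28.1, 34.3 and 31.5 TPM, isoform 5 had 17.9, 21.4 and 18.8 TPM, and isoform 12 had 11.7, 16 and 12.4 TPM. These lines were all above parental and apart from each other, with means 7.78, 4.81 and 3.32 times the parental mean. Isoform 9 had 0.0717, 0.0792 and 0 TPM, the lowest of the 13 groups. In the remaining 8 lines the mean was between 0.693 TPM (isoform 7) and 2.45 TPM (isoform 3), and all 9 lines with a lower mean lay wholly below the parental libraries. Log2 differences were 2.68 ± 0.16 (SE), 2.01 ± 0.16 and 1.5 ± 0.16 in isoforms 4, 5 and 12, and -2.26 ± 0.16 in isoform 9. OR51B5 was called higher in 3 lines and lower in 7. For isoforms 1 and 3 the differences were -0.87 and -0.55. Leaving out isoform 6 replicate 3 ended that line's call (-0.96), and leaving out isoform 1 replicate 2 brought isoform 1 past the minimum (-1.02).

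OR51B4, the single-exon receptor gene, had parental values of 1.26, 1.58 and 2.07 TPM. Isoform 4 had 12.8, 14.0 and 14.3 TPM, isoform 5 had 9.01, 11.3 and 9.43 TPM, and isoform 12 had 4.28, 7.58 and 6.4 TPM. Again the 3 lines were above every parental library and apart from each other, with means 8.36, 6.06 and 3.72 times the parental mean. Isoform 9 was lowest, at 0.0567, 0.171 and 0 TPM, and isoform 7 next, at 0.173, 0.313 and 0.33 TPM. Isoforms 2, 7, 8, 9, 10 and 11 lay wholly below parental, and isoforms 1, 3 and 6 overlapped it. Log2 differences were 2.49 ± 0.15 (SE), 2.06 ± 0.15 and 1.41 ± 0.15 in isoforms 4, 5 and 12. Of the 9 lines with a lower mean, 2 were called: isoform 9 at -1.29 ± 0.15 and isoform 7 at -1.04 ± 0.15. The isoform 7 call was lost under another scaling of the libraries (-1.0), without parental replicate 3 (-0.93) and without isoform 7 replicate 1 (-0.99). Isoform 10, at -0.99, was just short of the minimum and was called when parental replicate 1 (-1.10), parental replicate 2 (-1.01) or isoform 10 replicate 2 (-1.14) was left out. With a pseudocount of 0.1 TPM the called lines also took in isoforms 2 (-1.43), 8 (-1.21) and 10 (-2.15).

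Counting all members, 26 of the 48 gene-by-line pairs that passed the filter were called, 9 higher and 17 lower. OR51B4 passed that filter mainly through its high values in isoforms 4, 5 and 12, so its calls there are not independent of the filter. In the pooled comparisons 1.51% of all pairs were called either way, 19.0% had all 3 libraries above all parental ones and 26.1% had all 3 below. The other 36 pairs, those of HBG1, HBG2 and OR51B6, were not tested. Line by line, 3 of 4 tested members were called higher in isoforms 4, 5 and 12, where 0.227%, 0.153% and 0.44% of all genes were called higher. Called lower were 3 of 4 in isoforms 7 and 9 (0.96% and 0.44% of all genes). It was 2 of 4 in isoforms 2, 6, 8, 10 and 11 (1.37%, 0.153%, 0.473%, 0.313% and 0.653% of all genes) and 1 of 4 in isoform 1 (1.78%). Isoform 3 had 0 called, where 0.807% of all genes were called either way. The median difference over the 4 tested members was 2.45 in isoform 4 and -1.77 in isoform 9, against medians between -0.11 and 0.01 over all tested genes in the 12 lines.

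OR51B6, on the opposite strand, was listed at 0 in 36 libraries. A single library of each of isoforms 5, 7 and 12 had 0.0845, 0.0556 and 0.0486 TPM. OR51B2, a minus-strand neighbour that is not a member, was also highest in isoforms 4, 5 and 12, at a lower level than OR51B4. It was at 0.224, 0.098 and 0.15 TPM in parental cells, 1.7, 2.2 and 1.83 TPM in isoform 4, 1.33, 1.44 and 1.1 TPM in isoform 5, and 0.56, 0.626 and 1.07 TPM in isoform 12. The other 9 lines had means of at most 0.219 TPM. Its mean was below the filter, and without the filter its log2 difference in isoform 4 was 1.33 ± 0.09 (SE).

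Another 6 olfactory receptor genes in the tables lie inside the introns of the long HBE1 models, between 113.9 kb and 218.7 kb upstream of the compact HBE1 start: OR51M1, OR51J1, OR51Q1, OR51I1, OR51I2 and OR52D1. With 6 genes and 3 libraries, each group has 18 values. Of these, 9 were above 0 in isoform 4, 8 in isoform 5 and 6 in isoform 12. There was 1 above 0 in each of isoforms 8, 10 and 11, and 0 in the parental cells and in isoforms 1, 2, 3, 6, 7 and 9. OR52D1, the farthest upstream, had the highest value, with 0.163, 0.252 and 0.119 TPM in isoform 4 and 0 in all parental libraries. OR51M1 was at 0 in all 39 libraries. Of the 6, OR51I1 is on the minus strand and the other 5 are on the plus strand. The kit kept strand, per the labels' protocols, but no source used here says whether the quantification used it, so these values may include reads of the opposite strand. A set of 418 other olfactory receptor genes with a mean under 1 TPM was taken by name, outside the members and a list of flanking genes. Position was not used, so some of the set may lie in the same array. Its share of values above 0 was between 10.2% and 12.8% in every group, with 10.9%, 11.7% and 11.2% in isoforms 4, 5 and 12. TPM keeps no read count, so no counting error can be given for such low values.

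The members that varied moved in the same order. Over the 13 group means of log2(TPM + 1), Pearson's r was 0.99 between HBE1 and OR51B5 (Spearman's rho 0.97), 0.98 between HBE1 and OR51B4 (rho 0.96), and 0.99 between OR51B5 and OR51B4 (rho 0.98). It was 0.97 between HBE1 and HBG2 (rho 0.92) and 0.93 between HBE1 and OR51B2 (rho 0.88). Without isoforms 4 and 5, the 2 groups farthest from the median of HBE1, r was 0.97, 0.94, 0.97 and 0.86 for HBE1 with OR51B5, OR51B4, HBG2 and OR51B2. HBB was the exception, with r of -0.65 to HBE1 (rho -0.40), and -0.20 without those 2 groups. These are descriptions of 13 points that share their libraries and parental cells, for genes chosen because they varied together.

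Deviations of the 39 libraries from their own group means were less alike. Their Pearson's r was 0.22 for HBE1 with OR51B5, 0.41 for HBE1 with OR51B4, 0.35 for OR51B5 with OR51B4 and 0.04 for HBE1 with HBG2. It was -0.26 for OR51B5 with HBG2, -0.26 for HBE1 with OR51B2 and -0.15 for OR51B5 with OR51B2. The order the members share is one between groups, and within groups the values of r were lower.

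**Figure D2:**
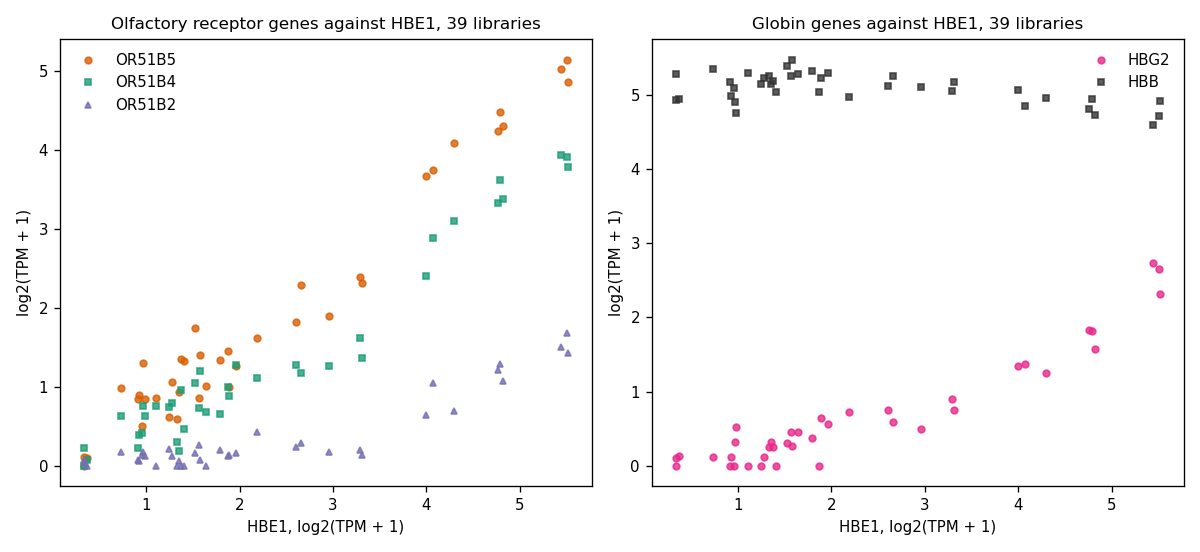
Levels of OR51B5, OR51B4 and OR51B2 (left) and of HBG2 and HBB (right) against HBE1 in each of the 39 libraries, all as log2(TPM + 1). All genes but HBB are high where HBE1 is high, while HBB is nearly level, with r of -0.65 to HBE1 over the group means.

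Ratios within a library compare the members directly. The ratio of HBE1 to OR51B5, both in TPM, was 1.41 ± 0.154 (SD, n = 3) in isoform 4, 1.39 ± 0.12 in isoform 5 and 1.24 ± 0.0639 in isoform 12. Parental cells had 1.9 ± 0.463, with libraries between 1.37 and 2.24, which overlapped isoforms 4 and 5 and lay above isoform 12. Across the 12 groups with OR51B5 above 0 in every library, mean ratios ran from 0.992 in isoform 2 to 2.27 in isoform 10. The ratio of OR51B4 to OR51B5 was 0.404 ± 0.0826 in parental cells, 0.439 ± 0.0271 in isoform 4, 0.512 ± 0.0155 in isoform 5 and 0.452 ± 0.0771 in isoform 12. All 3 isoform 5 libraries (0.502 to 0.53) were above the parental ones (0.326 to 0.49), and means in the other lines reached 0.883 in isoform 8. For HBG2 over HBE1 it was 0.0907 ± 0.0114 in parental cells, 0.114 ± 0.0229 in isoform 4, 0.0884 ± 0.0134 in isoform 5 and 0.0929 ± 0.0163 in isoform 12. In each of these 3 lines the libraries of HBG2 over HBE1 overlapped those of the parental cells, while in the other lines its means ran from 0.0327 (isoform 7) to 0.238 (isoform 2). Over the 12 groups with OR51B5 above 0 the mean of HBE1 differed by 48.1 times between highest and lowest, and its mean ratio to OR51B5 by 2.29 times. Isoform 9 is not among them: 1 of its libraries had OR51B5 at 0, and the ratio was 4.03 and 3.3 in the others, above every library of parental cells and of the other 11 lines.

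The order of the lines did not follow HNF4A mRNA, which was checked first as the targeted gene. HNF4A was at 31.5 TPM ± 0.589 (SD, n = 3) in parental cells and at means between 614 TPM and 1071 TPM in the lines, with every library of every line above parental. Isoforms 4 and 9, the extremes for HBE1, overlapped in HNF4A, at 856 TPM ± 28.2 (SD, n = 3) and 948 TPM ± 130.0. Isoform 6 had the most HNF4A, at 1071 TPM ± 41.4, and HBE1 below parental. Over the 12 lines Pearson's r between HBE1 and HNF4A was 0.10 (rho 0.03), and -0.31 without isoforms 4 and 5, given as a description. These are mRNA values and not protein, and an effect of the HNF4A level on HBE1 was not tested.

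**Figure D3:**
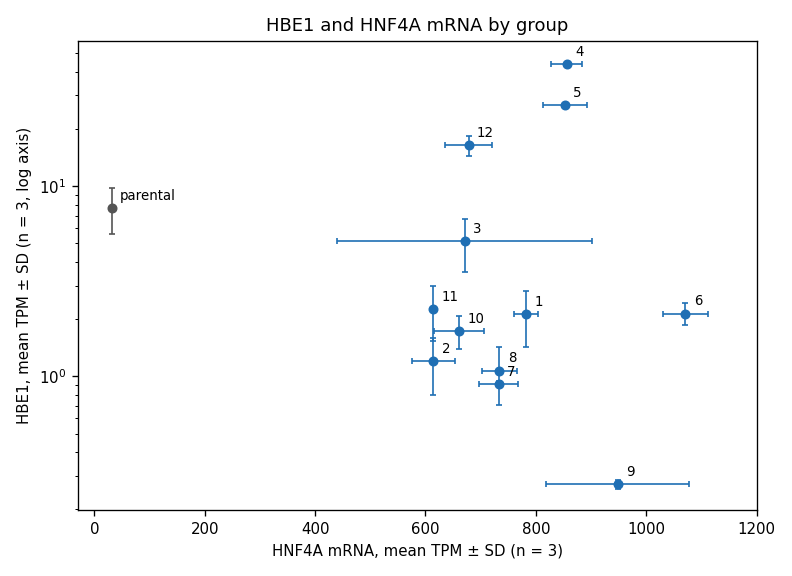
Mean HBE1 (vertical, log axis) against mean HNF4A mRNA (horizontal), both in TPM, for parental cells and the 12 isoform lines. Error bars are the SD of 3 libraries. Lines with HNF4A between 614 TPM and 1071 TPM span HBE1 means from 0.271 TPM to 43.8 TPM.

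Nor did the high lines form a single class of the standard isoform nomenclature, which is not in the labels. Isoforms 4, 5 and 6 share an N-terminal form, and HBE1 was at 43.8, 26.7 and 2.14 TPM in them. Isoforms 10, 11 and 12 share another, with 1.73, 2.25 and 16.4 TPM. Isoforms 3, 6, 9 and 12 share the shortened C-terminus, with 5.12, 2.14, 0.271 and 16.4 TPM. Differences between isoform classes were not tested for these genes.

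Tested genes farther along the chromosome had smaller differences than HBE1, OR51B5 and OR51B4 in the lines of isoforms 4, 5 and 12. Within 1000 kb on either side of the compact HBE1 start, 83 of 143 annotated genes were matched in the tables and 10 were tested. The 6 of these that are not members (TRIM21, TRIM68, TRIM6, TRIM5, C11orf42 and FAM160A2) had log2 differences between -0.19 and 0.16 in isoform 4, between -0.14 and 0.50 in isoform 5 and between -0.03 and 0.17 in isoform 12. In each of these 3 lines 0 of the 6 were called by limma, and 6 of these 18 gene-by-line pairs had an unadjusted p under 0.05. Over all genes the shares called higher in these lines were 0.227%, 0.153% and 0.44%, so nothing is read from that count. The 0.50 ± 0.07 (SE) was TRIM5, an antiviral restriction factor, at 19.9 TPM ± 0.694 (SD, n = 3) in parental cells and 28.5 TPM ± 1.24 in isoform 5. In isoform 9, where HBE1 was lowest, the 6 genes lay between -0.39 and 0.51.

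Of the 30 flanking genes listed as locus neighbours, 24 were in the tables and 2 were tested, TRIM5 and TRIM6. Of these 24 gene-by-line pairs, 3 were called, all higher (12.5%, against 0.94% of all pairs called higher). All 3 were of TRIM6, a ubiquitin ligase gene 326.2 kb upstream. TRIM6 rose from 10.4 TPM ± 1.32 (SD, n = 3) to 43.3 TPM ± 1.51 in isoform 1, a log2 difference of 1.96 ± 0.10 (SE, adjusted p = 1.64e-16). It also rose in isoform 2 (1.36 ± 0.10, adjusted p = 1.05e-12) and isoform 7 (1.02 ± 0.10, adjusted p = 9.81e-10), where the call ended without parental replicate 1 (0.93) or isoform 7 replicate 2 (0.98). In those 3 lines HBE1 was below parental. In isoforms 4 and 5 TRIM6 was at 10.4 TPM ± 0.922 and 10.5 TPM ± 0.154, overlapping parental. HBD, HBBP1 and OR51M1 were at 0 in all libraries, and the noncoding gene BGLT3 was above 0 in 1 library only.

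**Figure D4:**
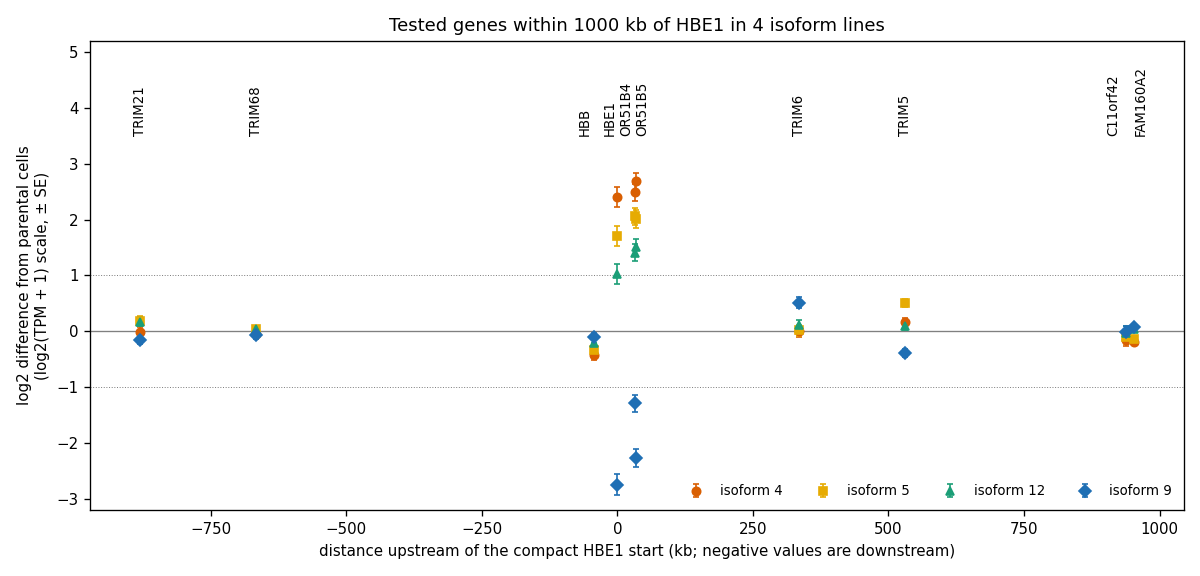
Log2 difference from parental cells (vertical, log2(TPM + 1) scale, bars ± SE) of the 10 tested genes within 1000 kb of HBE1, by distance upstream of the compact HBE1 start in kb (HBE1 is drawn at its compact start, OR51B5 at its downstream end and other genes at their centres). The 4 lines drawn were chosen after their values were seen. HBE1, OR51B4 and OR51B5 are above 1 in isoforms 4, 5 and 12 and below -1 in isoform 9, while the other 7 genes lie between -0.42 and 0.51.

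Of the globin genes elsewhere in the genome, HBA1 and CYGB were tested and neither was called, where 1.51% of all gene-by-line pairs were. HBA1, an adult alpha globin, was the only alpha-like globin of 5 to be tested, at 2.83 TPM ± 0.727 (SD, n = 3) in parental cells, 2.46 TPM ± 0.393 in isoform 4 and 5.43 TPM ± 0.0428 in isoform 8, its highest. It lay wholly above parental in isoforms 5, 8, 10 and 12, with 3.83 TPM ± 0.322 in isoform 5 (0.35 ± 0.13, SE, adjusted p = 0.0778) and 4.48 TPM ± 0.88 in isoform 12 (0.52 ± 0.13, adjusted p = 0.00746). CYGB, encoding cytoglobin, was at 2.33 TPM ± 0.157 in parental cells, 2.9 TPM ± 0.177 in isoform 4 and 4.34 TPM ± 0.372 in isoform 1, its highest. By limma, 0 of 12 pairs were called for each gene, while 5 and 8 of the 12 had an unadjusted p under 0.05. Olfactory receptor genes outside the members and the listed neighbours, taken by name and not by position, had 6 of 424 genes tested. By limma 0 of their 72 pairs were called, with 8 of 72 at an unadjusted p under 0.05.

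Among factors known to control the globin cluster, IGF2BP3 and NR2F1 were called. Of 30 listed, 21 were tested, and 6 of 252 gene-by-line pairs were called, 4 higher and 2 lower (2.38%, against 1.51% of all pairs). The median difference was -0.06. All 4 higher pairs were IGF2BP3, an RNA-binding protein of fetal tissues, which rose from 1.63 TPM ± 0.128 (SD, n = 3) to 10.2 TPM ± 1 in isoform 1, 5.33 TPM ± 0.252 in isoform 5, 6.76 TPM ± 0.313 in isoform 8 and 7.08 TPM ± 0.986 in isoform 12. Their log2 differences were 2.09, 1.26, 1.56 and 1.61, each ± 0.09 (SE), with adjusted p of at most 1.44e-11. In isoform 4, the highest line for HBE1, IGF2BP3 was at 1.02 TPM ± 0.0785, below all parental libraries. NR2F1, an orphan nuclear receptor, fell in isoform 2 (-1.01 ± 0.14, adjusted p = 2.88e-07) and isoform 10 (-1.06 ± 0.14, adjusted p = 4.31e-07). Both calls ended without parental replicate 3 (-0.94 and -0.98). They also ended without isoform 2 replicate 1 (-0.96) or 2 (-0.99) and without isoform 10 replicate 2 (-0.95), respectively, and under median-of-ratios scaling isoform 2 was at -0.9. The erythroid factors GATA1 and KLF1 did not exceed 0.0846 TPM and 0.142 TPM in any library, and the fetal globin repressor BCL11A did not exceed 0.268 TPM. ZBTB7A, another such repressor, ranged from 26.7 TPM to 32.5 TPM. Other listed factors were expressed too: GATA2 at 5.16 TPM to 10.5 TPM, LDB1 at 62.9 TPM to 101 TPM and MYB at 3.93 TPM to 15.8 TPM. MYB lay wholly above parental in isoforms 4 and 5 (0.57 ± 0.09 and 0.37 ± 0.09, SE) and overlapped it in isoforms 6 and 12. In every other line MYB was wholly below parental, and it was called in no line.

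Several defining markers of red cells were near 0. ALAS2, SLC4A1 and HEMGN reached at most 0.171, 0.104 and 0.04 TPM in any library, and AHSP, the chaperone of alpha globin, at most 0.333 TPM. Others on the marker list were expressed in every library: TFRC at 95.8 TPM to 140 TPM, FECH at 48.9 TPM to 64.0 TPM, EPOR at 9.78 TPM to 16.8 TPM and ERMAP at 2.58 TPM to 4.35 TPM. None of these was called in any line. Of 19 markers 7 were tested, and 8 of 84 pairs were called, all lower (9.52%, against 1.51% of all pairs), with a median difference of -0.18. ANK1, encoding ankyrin of the membrane skeleton, fell in isoforms 1, 7, 8, 9 and 11, by between 1.07 (isoform 9, ± 0.09, SE, adjusted p = 2.38e-10) and 1.91 (isoform 7, ± 0.09, adjusted p = 1.22e-16) on the log2 scale. Its levels were 6.76 TPM ± 0.604 (SD, n = 3) in parental cells and 1.06 TPM ± 0.147 in isoform 7. In isoforms 4 and 5, ANK1 was at 9.09 TPM ± 0.745 and 8.81 TPM ± 1.01, above all parental libraries but not called. SPTB, encoding a spectrin, fell in isoforms 1 and 2 (-1.17 ± 0.10 and -1.35 ± 0.10, adjusted p = 5.52e-11 and 3.17e-12). CA2, a carbonic anhydrase that colon epithelium also makes, fell in isoform 1, from 103 TPM ± 2.61 to 49 TPM ± 1.48 (-1.05 ± 0.08, adjusted p = 2.7e-12), a call that ended under median-of-ratios scaling of the libraries (-0.91). In isoform 2 its difference of -1.0 was just short of the minimum, and reached -1.01 without parental replicate 1 or 3 or isoform 2 replicate 1.

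Of the heme metabolism genes, HMOX1 and BLVRB were called. All 14 genes of the heme list were tested, and 9 of 168 pairs were called, all higher (5.36%, against 0.94% of all pairs called higher), with a median difference of 0.04. They were 5 of HMOX1, which opens the heme ring, and 4 of BLVRB, a biliverdin reductase. HMOX1 rose from 23.7 TPM ± 1.96 (SD, n = 3) to 135 TPM ± 18.1 in isoform 1 (2.45 ± 0.09, SE, adjusted p = 5.19e-20), and also in isoforms 2, 3, 7 and 10. In isoform 3 its difference of 1.0 fell short of the minimum without parental replicate 2 (0.97) or 3 (0.97), or isoform 3 replicate 2 (0.92) or 3 (0.96). In isoform 10, at 1.03, it did so without parental replicate 2 (0.99) or 3 (just under 1.0), or isoform 10 replicate 1 (0.96). In isoform 11, at 0.97, it passed the minimum without parental replicate 1 (1.04) and under median-of-ratios scaling (1.06). BLVRB rose in isoforms 1, 2, 10 and 11, from 66.1 TPM ± 2.95 to 158 TPM ± 14.0 in isoform 1 (1.24 ± 0.06, adjusted p = 2.98e-17). In isoforms 4, 5 and 12 neither gene was called, with HMOX1 at 26, 21.2 and 29.1 TPM.

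The epithelial character of the labelled cells was checked against markers, which do not single out colon. The 8 epithelial markers summed to between 2719 TPM and 6034 TPM per library, with EPCAM at 514 TPM ± 11.0 (SD, n = 3) in parental cells. The 6 leukocyte markers summed to between 0.674 TPM and 1.76 TPM, and the 8 fibroblast and endothelial markers to between 9.81 TPM and 20.6 TPM. In these bulk samples, fewer cells making a transcript and less RNA per cell cannot be told apart, and this holds for HBE1 and its neighbours too.

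By correlation of the 13 group means on the log2(TPM + 1) scale, the 5 tested genes outside the members most like HBE1 were MCRIP1 (r = 0.93, rho 0.80), TRIB2 (0.92, rho 0.65), CDYL (0.92, rho 0.89), TNFSF9 (0.90, rho 0.84) and MIR181A2HG (0.89, rho 0.90). For OR51B4 they were MCRIP1 (0.93, rho 0.79), TRIB2 (0.93, rho 0.67), MEX3D (0.90, rho 0.55), MAPK8 (0.88, rho 0.64) and ETHE1 (0.87, rho 0.76). Each of these values is below the r of 0.98 between HBE1 and OR51B4. Nothing is read from that, since the members were chosen because they varied together. The changes of these outside genes were smaller than those of HBE1, OR51B5 and OR51B4. TRIB2, a pseudokinase gene, had the widest, with 4.41 TPM ± 0.315 (SD, n = 3) in parental cells, 11 TPM ± 0.967 in isoform 4, 8.48 TPM ± 0.47 in isoform 5, 7.46 TPM ± 0.906 in isoform 12 and 1.68 TPM ± 0.204 in isoform 2. TRIB2 was called in 2 lines, isoform 4 (1.15 ± 0.09, SE) and isoform 2 (-1.02 ± 0.09). The other 7 genes were called in 0 lines by limma, with 35 of their 84 pairs at an unadjusted p under 0.05. Over the 8 genes 2.08% of pairs were called, near the 1.51% of all pairs, so nothing is read from that count. The isoform 2 call ended under median-of-ratios scaling (-0.93), without parental replicate 2 (-0.98) or without isoform 2 replicate 1 (-0.95). MCRIP1 was at 51.5 TPM ± 0.716 in parental cells, 66.4 TPM ± 1.74 in isoform 4 and 40.7 TPM ± 0.291 in isoform 11.

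The authors' deposited table of each line against parental cells gave the same direction in all 36 pairs of HBE1, OR51B4 and OR51B5, from the same libraries. In the authors' deposited table for isoform 4 the log2 fold change was 2.06 for HBE1, 1.97 for OR51B4, 2.29 for OR51B5 and -0.31 for HBB. For isoform 9 the authors' deposited table listed -2.01, -0.74 and -1.67 for the first 3 of these and -0.06 for HBB. An adjusted p under 0.05 was listed in the authors' deposited table for HBE1 in 12 lines, OR51B5 in 11, OR51B4 in 8 and HBB in 3 (isoforms 1, 4 and 5). HBB in isoform 1 was on the higher side there, at 0.27. The calls made here also need an absolute log2 difference of at least 1. Under that limit the authors' deposited table had HBE1 in 9 lines, OR51B5 in 8, OR51B4 in 2 and HBB in 0. Limma called HBE1 higher in 3 lines and lower in 8, OR51B5 in 3 and 7, and OR51B4 in 3 and 2. The mean normalised count of a gene, a measure of the reads behind it, was between 76.9 and 528 for HBE1 and at most 0.354 for HBG1 and 0.312 for OR51B6 in the authors' deposited table. It pools the libraries of a comparison, so it does not give the reads of a low line alone.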

How the data were processed

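RNA-seq of 39 libraries in 13 groups was analysed from 13 deposited tables. The authors' values are TPM per gene and library, transcript abundance scaled to a fixed sum, and the columns summed to between 999972.6 and 999987.7. Kallisto 0.44.0, Trimmomatic 0.36, FastQC 0.11.5, DESeq2 1.22.2 and GRCh38.p12 are named, without a role, in the submitters' processing notes, and the annotation is not given in the sources used here. Per the file headers, each line's table adds results of a comparison with parental cells: a mean normalised count (a signal), log2 fold changes, their standard errors and p-values. These entered no fit. TPM does not give read depth, which is unknown. Summed over genes, the deposited mean normalised counts came to 50609338 to 56136330 per table, and 27884 to 30550 genes were above 0 TPM per library.

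The 12 rows of HNF4A were summed. Linear models were fitted with limma 3.58.1 in R 4.3.3 (eBayes with trend) to log2(TPM + 1) of the 15003 genes averaging 1 TPM or more, with all libraries in 1 fit of 26 residual degrees of freedom. Each line was compared with parental cells, p-values were adjusted by Benjamini-Hochberg within a comparison, and a call needed an absolute log2 difference of at least 1 besides an adjusted p under 0.05. All 12 comparisons share the parental libraries. The procedure was tested on simulated data. Coordinates, gene models and sequences are from GENCODE v29 (GRCh38). Named genes are the 7 members, up to 6 called genes per list, the 5 genes most correlated with HBE1 and with OR51B4, and HNF4A. OR51B2, OR52D1 and other genes inside the HBE1 span, TRIM5, HBA1, CYGB and list genes that were not called were named after their values were seen. The members and lists were chosen with earlier results of these data known. The labels give isoform 4 and 5 libraries no replicate number. Alternatives were another pseudocount, filter, scaling and minimum difference, separate fits, a replicate block and each library left out. The level of 1 marker gene is not reported here.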

Additional observations from a re-analysis of the deposited data

Results flagged for a closer look

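HBE1 stood out because the lines moved in opposite directions against the same parental cells. Every library was above every parental library in 3 lines (isoforms 4, 5 and 12) and below every one in 8 lines. For OR51B5 the numbers were 3 lines above and 9 lines below. For OR51B4 they were 3 lines above and 6 lines below. Such separation was common: over all tested genes and the 12 lines pooled, 19.0% of gene-by-line pairs lay wholly above parental and 26.1% wholly below. Nothing is read from these counts. The difference between the lines that were higher and those that were lower was not tested. Groups of 3 libraries are too small for a check of single outlying libraries.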

How the results depend on the processing

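Members were called in 26 of 48 pairs, and the alternatives on all lines gave between 21 and 37 calls, with 25 to 27 when 1 library was left out. Of 644 recomputed member-by-line values, 619 kept their side of the threshold, 6 lost the call, 19 gained it and 0 reversed. With r of 0.99, 0.98 and 0.99 over group means for HBE1 with OR51B5, HBE1 with OR51B4 and OR51B5 with OR51B4, leaving out the 2 groups farthest from the median gave 0.97, 0.94 and 0.98, and a pseudocount of 0.1 TPM gave 0.98 for the last. Without a minimum fold change, called pairs rose to 16 for neighbours (from 3), 126 for regulators (from 6) and 47 for erythroid markers (from 8). They rose to 66 for heme genes (from 9), 4 for the other olfactory receptor genes (from 0) and 9 for other globins (from 0). With a pseudocount of 0.1 TPM regulators had 11 and erythroid markers 15. With the filter at 5 TPM, which tests fewer genes, they had 2 and 1. Leaving out 1 library gave 2 to 3 calls for neighbours, 5 to 7 for regulators, 8 to 9 for erythroid markers, 7 to 10 for heme genes and 0 for the rest.

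The replicate block, fitted on the 33 numbered libraries, gave 20 member calls, as did the same libraries without the block, a reference added after seeing the data. The numbers share no stated batch. Same-numbered libraries had a median correlation of deviations of 0.05, the lowest -0.18, although 29 of 33 correlated best with their own number, a hint from the data and not the design. Depth limits HBG1, HBG2, OR51B2 and OR51B6, whose mean normalised counts in the authors' deposited table were at most 0.354, 34.6, 24.3 and 0.312.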
